A study of Mus musculus with 6 samples.

Results

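Lymphatic endothelial cells (LECs) line the vessels that drain fluid, antigens and immune cells from the skin. In single-cell RNA-seq of dissociated, unsorted mouse dorsal skin, 727 LECs were found among 50850 cells that passed the filters. A cell was taken as an LEC when it held at least 2 unique molecular identifiers (UMIs, each standing for 1 captured RNA molecule) of Prox1, Mmrn1 and Lyve1 together and at least 1 UMI of Pecam1 or Cdh5. It also had no UMI of the leukocyte gene Ptprc, at most 2 UMIs of the macrophage genes C1qa and Mrc1, and fewer than 10 UMIs per 10000 of the keratins Krt5 and Krt14 and of the collagens Col1a2 and Col3a1. The 6 libraries contributed 74 and 101 LECs (Sham replicates 1 and 2), 165 and 185 LECs (IMQ) and 86 and 116 LECs (IMQ+SHP099).

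All mice were wild-type female C57BL/6J animals of 8 to 10 weeks. The Sham group was labelled as untreated. In the IMQ group, cream with 5% imiquimod (62.5 mg) was put on the shaved back every day for 4 days to produce a psoriasis-like inflammation, and the skin was taken 1 day after the last dose. The IMQ+SHP099 group received the same cream and, by mouth, 10 mg/kg per day for 4 days of SHP099, which inhibits the phosphatase SHP2 (gene Ptpn11) allosterically. Each group had 2 libraries, and each library pooled the skin of 2 mice (Sham) or 3 mice (IMQ and IMQ+SHP099), so an inhibitor alone and the variation between single mice were not measured. The labels gave no batch.

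The fate of a lymphatic endothelial cell is set by the transcription factor PROX1, and its growth and survival depend on VEGF-C acting on the receptor VEGFR-3 (gene Flt4). Blind-ended capillaries in the dermis take up fluid and secrete the chemokine CCL21, which draws CCR7-bearing dendritic cells and T cells into the vessel, and they carry the hyaluronan receptor LYVE1. Collecting vessels downstream have valves, whose formation needs FOXC2, and carry less LYVE1. In inflamed skin these vessels are the route by which antigen and leukocytes leave for the lymph node.

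The marker genes of the rule chose the cells, and their levels are given as a description. Mmrn1, a secreted multimerin, was found in 95.8 to 100% of the LECs of a library, and Prox1 in 69.8 to 93.1%. Lyve1 was found in 81.1% and 57.4% of LECs in the Sham libraries, in 84.9% and 85.4% in the IMQ libraries and in 76.7% and 75% in the IMQ+SHP099 libraries. Sham replicate 2 was therefore the library with the lowest share of Lyve1-positive cells among its LECs. At the edge of the rule, 25 cells had exactly 1 UMI of the lymphatic genes, 9 cells had 2 UMIs and 19 cells had 3 UMIs. Flt4, which the rule did not use, was present in 24.0%, 44.4% and 57.9% of these cells, respectively. A further 77 cells failed only the Pecam1 and Cdh5 criterion, 69 only the collagen limit, 49 only the keratin limit, 21 only the macrophage limit and 12 only the Ptprc limit. The lymphatic criterion alone excluded 614 cells, among them the 25 with 1 UMI. Flt4 was present in 145 of the 614, of which 90 were in Sham replicate 2.

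Flt4 served as the check of the label. Its level in CPM (UMIs of the gene per 1000000 UMIs of the summed LECs of a library, after scaling by TMM factors) was 907 and 973 CPM in Sham, 916 and 1008 CPM in IMQ and 964 and 956 CPM in IMQ+SHP099. These 6 values lay close together, and every one was above the 24.2 to 68.4 CPM in blood vascular endothelial cells (BECs) of the same libraries. BECs were 503 cells with at least 2 UMIs of Pecam1 or Cdh5, no UMI of the lymphatic genes and the same limits otherwise. A median LEC held 2401 to 5101 UMIs, compared with 5645 to 18264 UMIs for a kept cell, and the LECs of a library summed to 230387 to 1179380 UMIs.

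Several properties of the libraries bear on the values below. Sham replicate 2 held 309 of the 503 BECs, whereas IMQ+SHP099 replicate 1 held 15. LECs of Sham replicate 1 carried 2504 CPM of keratinocyte markers outside the rule (16.0% of the level over all kept cells of that library), and the other 5 libraries carried 31.7 to 152 CPM (1.06 to 1.63%). The 7 pericyte and smooth muscle markers summed to 0 and 32.4 CPM in the Sham LECs, 267 and 828 CPM in the IMQ LECs and 7.37 and 268 CPM in the IMQ+SHP099 LECs. The 5 neutrophil markers summed to 0 and 1.41 CPM in Sham, 181 and 206 CPM in IMQ and 449 and 113 CPM in IMQ+SHP099, with 2 to 5 of the 5 genes at 0. Macrophage, T cell and mast cell markers stayed at or below 28.2 CPM in every library, and fibroblast markers outside the rule at 19.6 to 109 CPM. Schwann cell markers reached 551 CPM in Sham replicate 2 and at most 4.34 CPM elsewhere, and hemoglobin genes reached 3257 CPM in Sham replicate 2 and 9073 CPM in IMQ replicate 1. Markers of blood endothelium summed to 1081 to 2298 CPM in LECs and 5497 to 12320 CPM in BECs, and lymphatic markers outside the rule to 28950 to 73140 CPM and 33.9 to 391.8 CPM. In BECs, pericyte and smooth muscle markers summed to 24.0 to 1272 CPM and fibroblast markers outside the rule to 110 to 567 CPM. Keratinocyte markers outside the rule reached 9993 and 2295 CPM in the BECs of the Sham libraries. The part of such RNA in the differences between LECs and BECs was not tested. Of the 727 LEC barcodes, 12 also occurred in another library, and 9 LECs lay above the 95th percentile of UMIs of their library.

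The comparison of LECs with BECs describes what distinguished the lymphatic cells from the blood vessel lining of the same skin. Because the cells of both kinds were chosen by endothelial and lymphatic genes, these 12 genes were left out, and the differences in other genes are a description of the 2 selected kinds of cells. Summed UMIs of both kinds in each library were compared with edgeR's quasi-likelihood test, with the library as a block and Benjamini-Hochberg adjustment. Of 7417 genes tested, 2286 (30.8%) had an adjusted p under 0.05, of which 1077 (14.5%) were higher in LECs and 1209 (16.3%) lower. The median log2 difference over all genes was -0.015.

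Secreted and scavenging molecules of the lymphatic lining stood far apart. Ccl21a, which encodes the CCL21 chemokine (GRCm38 chr4:42772860-42773993), was at 75750 and 24820 CPM in the Sham LECs, 41550 and 41920 CPM in IMQ and 47130 and 35460 CPM in IMQ+SHP099, compared with 0 to 334 CPM in BECs. The log2 difference was 11.56 ± 0.876 (SE, adjusted p = 1.75e-06 by edgeR). The near-identical copy Gm21541 shares 71.6% of its 50-base windows with Ccl21a, so reads of both copies could not be separated by the counting. Reln, encoding the secreted glycoprotein reelin, ranged from 849 to 1372 CPM in LECs and from 0 to 1.83 CPM in BECs (log2 difference 9.34 ± 0.263). Ackr2, a decoy receptor that removes inflammatory CC chemokines, was at 279, 69.7, 193, 145, 252 and 188 CPM in the same order of libraries. No UMI of Ackr2 was found in 503 BECs, which allows a share of up to 0.596% of cells with a UMI, and the summed level in LECs was at least 239.6-fold higher. Such limits cover counting error in cells with a UMI and say nothing of cells that express a gene without a captured molecule.

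The lymphatic surface and matrix list had 11 members tested, and all 11 were higher in LECs, with a median log2 difference of 4.20. For comparison, 14.5% of all genes tested were higher. Fgl2, a fibrinogen-like immune regulator, was at 2739 to 3950 CPM in LECs and 17.1 to 68.4 CPM in BECs (log2 difference 6.24 ± 0.232). Pdpn, encoding the mucin-type glycoprotein podoplanin that binds platelet CLEC-2, was at 252 to 363 CPM against 0.458 to 101 CPM (4.20 ± 0.592). Nts, the precursor of the peptide neurotensin, was at 438 to 1345 CPM against 0 to 40.4 CPM. The genes with the largest differences under the naming rule also included Sh3gl3, Foxp2, Slc45a3 and Pkhd1l1, with log2 differences between 7.09 and 8.36.

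Among 16 lymphatic identity transcription factors tested, 7 were higher in LECs and 1 was lower, with a median log2 difference of 0.34. Over all genes tested, 14.5% were higher and 16.3% lower. Maf was at 866 to 1448 CPM in LECs and 2.61 to 48.5 CPM in BECs (log2 difference 5.94). Tbx1 differed by 4.24, Foxc2 by 3.88, Nr2f2 (COUP-TFII, a partner of PROX1) by 2.65, Nfatc1 by 1.95, Klf4 by 1.46 and Foxc1 by 0.77. Sox18, which acts upstream of Prox1 in the embryo and is also used by blood vessels, was lower in LECs (-1.10).

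In the list of the VEGF-C and angiopoietin axis, 5 of 14 members tested were higher in LECs and 4 were lower. The shares over all genes tested were 14.5% and 16.3%. Besides Flt4 (log2 difference 4.63 ± 0.202), the VEGF-C co-receptor Nrp2 (1.79), the adrenomedullin receptor Calcrl (1.43) and its ligand Adm (2.75) were higher. The ligand Vegfc itself was lower (-5.86): only 3 UMIs were found in the LECs of all libraries, whereas BECs held 17 to 133 CPM. Tek, the angiopoietin receptor TIE2, was lower in LECs by a smaller amount (-0.94). The growth factor of the axis was thus found in the blood endothelium and its receptor in the lymphatic endothelium.

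Genes for leukocyte traffic were called in both directions, where 14.5% of all genes tested were higher in LECs and 16.3% lower. Of 12 adhesion and migration genes tested, 4 were higher in LECs (Sema3d, L1cam, Spns2 and Sema3f) and 6 were lower. Spns2 exports sphingosine-1-phosphate, the lipid that draws lymphocytes into lymph. The selectins Selp (-4.31) and Sele (-3.50) and the integrin ligand Vcam1 (-2.28), which capture leukocytes from blood, were lower in LECs. Of 10 chemokines and scavenging receptors tested, 5 were higher (Ccl21a, Ackr2, Ackr3, Ccl7 and Ccl2) and 3 were lower (Cx3cl1, Cxcl1 and Cxcl12).

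Of 20 basement membrane and anchoring genes tested, 12 were lower in LECs and 3 were higher (Reln, Timp3 and Lama4), with a median log2 difference of -0.93. Over all genes tested, 16.3% were lower and 14.5% higher. Those that were lower included both main collagen IV chains, Col4a1 and Col4a2, and the laminin chain Lama5. BECs also held more pericyte and smooth muscle marker RNA than LECs in every library, and its part in these differences was not tested. Of 15 junction and glycocalyx genes, 5 were higher and 6 were lower. Cldn5, the claudin of endothelial tight junctions, was at 2169 to 3096 CPM in LECs and 451 to 1811 CPM in BECs (log2 difference 1.52). Of 16 Notch, ephrin and BMP genes tested, 12 were lower and 2 were higher (Hes1 and the venous receptor Ephb4). When LECs were fitted without BECs, 12 of these 16 passed the filter on low counts, so others entered this test through their level in BECs.

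Genes found in BECs and not in LECs included Cytl1, the arterial connexin Gja5 and Gkn3. None of these had a UMI in 727 LECs, which allows a share of up to 0.413% of cells with a UMI, and they were at least 386-fold, 258.6-fold and 150.6-fold lower in LECs. Flt1, the VEGF receptor 1, differed by -8.46 ± 0.343 on the log2 scale, the matrix protein Mgp by -8.44 and Ly6c1 by -7.52. Of 16 cell cycle genes tested, 12 were lower in LECs and none was higher (median -2.34), where 16.3% of all genes tested were lower. When LECs were fitted without BECs, only 8 members of this list passed the filter on low counts. Others thus entered the test through their level in BECs, and for these the filter favoured a lower call in LECs. A UMI of Mki67 or Top2a, genes of dividing cells, was found in 0, 5.94, 1.82, 0, 0 and 0% of LECs and in 10.3, 9.06, 30.4, 24.1, 26.7 and 10.0% of BECs. The 4 zeros in LECs allow shares of cells with a UMI of up to 4.05, 1.62, 3.49 and 2.59%, and a median BEC held more UMIs than a median LEC in every library.

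**Figure D1:**
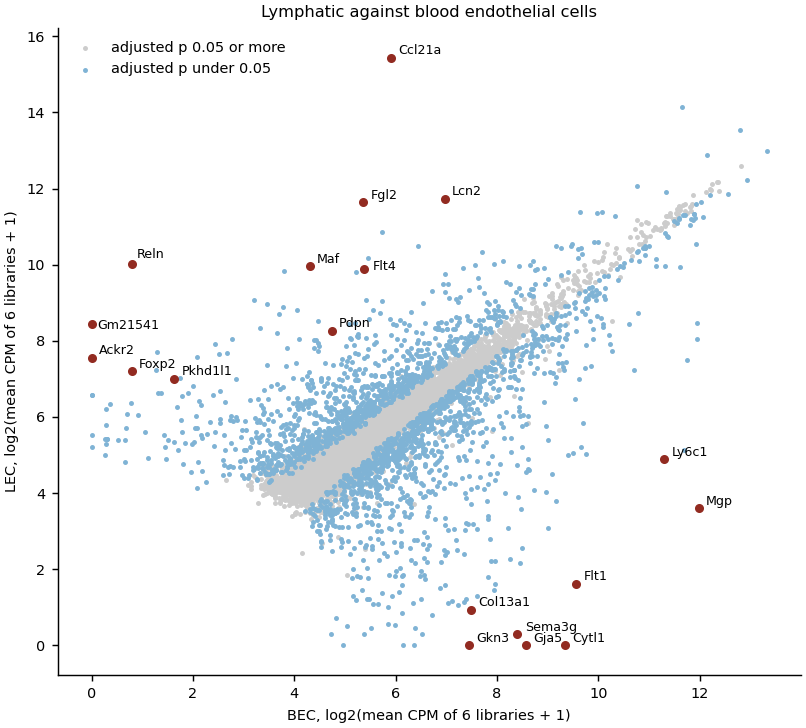
Level of each tested gene in LECs (y axis) and BECs (x axis), both as log2 of the mean CPM of 6 libraries plus 1. Blue points had an adjusted p under 0.05 by edgeR, grey points did not, and red points are named genes. Ccl21a, Reln, Fgl2, Maf and Flt4 lie far above the main band, and Mgp, Ly6c1 and Flt1 far below it.

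LECs varied among themselves in their main product. The median LEC of a library held 301 to 775 Ccl21a UMIs per 10000, but 84 of the 727 cells (11.6%) held no Ccl21a UMI at all. The middle 80% of all LECs ran from 0 to 995 UMIs per 10000, and the 10% of cells with the most Ccl21a held 34.8% of its UMIs. All 74 LECs of Sham replicate 1 had Ccl21a, the library with the highest level and the most keratinocyte RNA.

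Lyve1 separated 569 LECs with at least 1 UMI of it from 158 LECs with none. Since Lyve1 is a gene of the rule, cells without it were kept only through Prox1 or Mmrn1, and the split is given as a description with no test. Ccl21a was found in 97.4% of the cells with Lyve1 and 56.3% of the cells without, and Reln in 92.3% and 65.8%. Ackr2 was found in 54.3% and 5.06%, respectively. In each library 48.3 to 60.9% of the cells with Lyve1 and 0 to 15% of those without had Ackr2. The chemokine, the matrix glycoprotein and the scavenging receptor thus went with Lyve1 in the same cells.

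Several genes were found more often in LECs without Lyve1. Foxp2 was present in 53.8% of them compared with 22.3% of the cells with Lyve1, Foxc2 in 49.4% compared with 25%, the claudin Cldn11 in 34.2% compared with 15.8% and Nts in 54.4% compared with 42.9%. Cldn11 ran the other way in Sham replicate 1 (7.14% without and 11.7% with Lyve1) and IMQ+SHP099 replicate 1 (10% and 13.6%). Of other valve and collecting vessel genes, Itga9 was found in 53.8% and 53.4%, and Gja4, found in 29.75% and 20.04%, was at 73.2 and 68.9 CPM. In BECs, which served as the background, Foxp2 was found in 0 to 5.36% of the cells of a library and Foxc2 in 0 to 13%. Ackr4, a receptor that scavenges CCL19 and CCL21, was found in 10 of 158 cells without Lyve1 (6.33%) and in 0 of 569 with Lyve1, which allows a share of up to 0.527% of cells with a UMI. The cells without Lyve1 held somewhat more RNA (median 4982 UMIs, compared with 4005). Among the cells of at least 3000 UMIs, 381 with and 115 without Lyve1, the shares were 60.1% and 4.35% for Ackr2, 31.5% and 70.4% for Foxp2, and 33.9% and 60% for Foxc2. Sham replicate 1 had only 14 cells without Lyve1, of which 7.14% had Foxc2 and all had Ccl21a, in contrast to the other 5 libraries. Flt4 was found in 95.4% of the cells with Lyve1 and 78.5% of those without, so most cells of both kinds carried this lymphatic receptor.

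**Figure D2:**
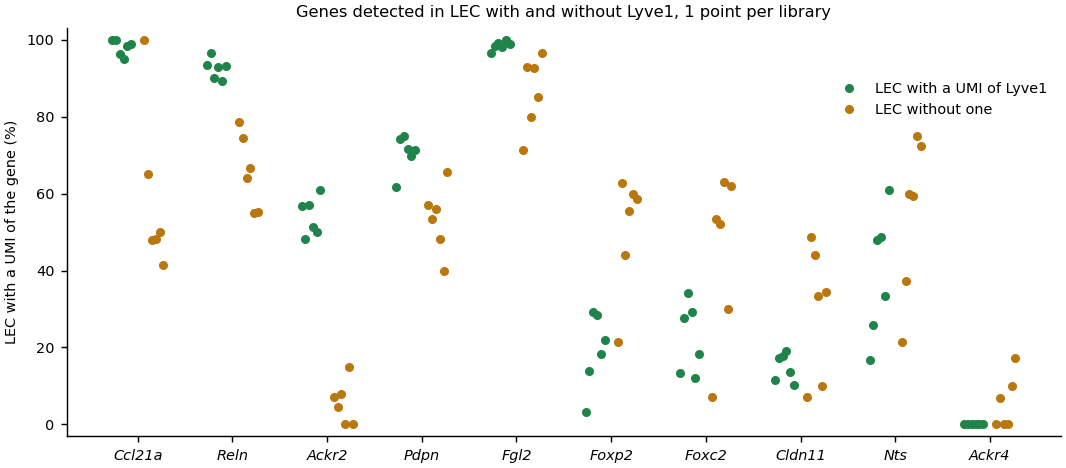
Percentage of LECs with at least 1 UMI of the gene on the x axis, for cells with and without a UMI of Lyve1. Each point is 1 of the 6 libraries. Ackr2 lies at 48.3 to 60.9% in cells with Lyve1 and at 0 to 15% in cells without, and Foxp2 is mostly higher in cells without Lyve1.

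The share of LECs in the skin preparation was compared between the treatments. LECs made up 0.862% (exact Clopper-Pearson 95% interval 0.678 to 1.08) and 1.23% (1.00 to 1.49) of the kept cells of the Sham libraries. They made up 2.15% (1.84 to 2.5) and 1.80% (1.55 to 2.07) of the kept cells after IMQ, and 0.990% (0.793 to 1.22) and 1.57% (1.30 to 1.88) after IMQ+SHP099. The mean share was 1.05 ± 0.258% (SD, n = 2) for Sham, 1.97 ± 0.250% for IMQ and 1.28 ± 0.411% for IMQ+SHP099. Both IMQ libraries lay above both Sham and both IMQ+SHP099 libraries. With 2 libraries against 2, the exact two-sided permutation test cannot give a p under 0.333, and it gave 0.333 for IMQ against Sham (difference +0.929 percentage points) and for IMQ+SHP099 against IMQ (-0.693 percentage points). The latter difference was -0.403 percentage points without IMQ+SHP099 replicate 1 (exact permutation p = 0.667).

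The values depended on the denominator. Among the kept cells low in keratin, LECs made up 2.14 and 1.49% of the cells of the Sham libraries, 2.66 and 1.97% of those of IMQ and 3.19 and 1.68% of those of IMQ+SHP099, and the groups overlapped in every comparison (exact permutation p = 0.667 for IMQ against Sham and 1.0 for IMQ+SHP099 against IMQ). After thinning each cell to 3000 UMIs, the IMQ libraries lay above the Sham libraries with this denominator too (0.993 percentage points, exact permutation p = 0.333). The number of cells low in keratin varied from 2699 to 9383 per library, and the part of keratinocyte recovery in the share among all cells was not tested. Among endothelial cells (LECs and BECs), LECs were 71.8 and 24.6% of the total for Sham, 74.7 and 77.4% for IMQ and 85.1 and 74.4% for IMQ+SHP099. The difference between IMQ and Sham was 27.8 percentage points with no overlap (exact permutation p = 0.333), and 4.19 without Sham replicate 2. The intervals cover counting error only, and the share of a cell type in a dissociated preparation is not its number in the tissue.

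**Figure D3:**
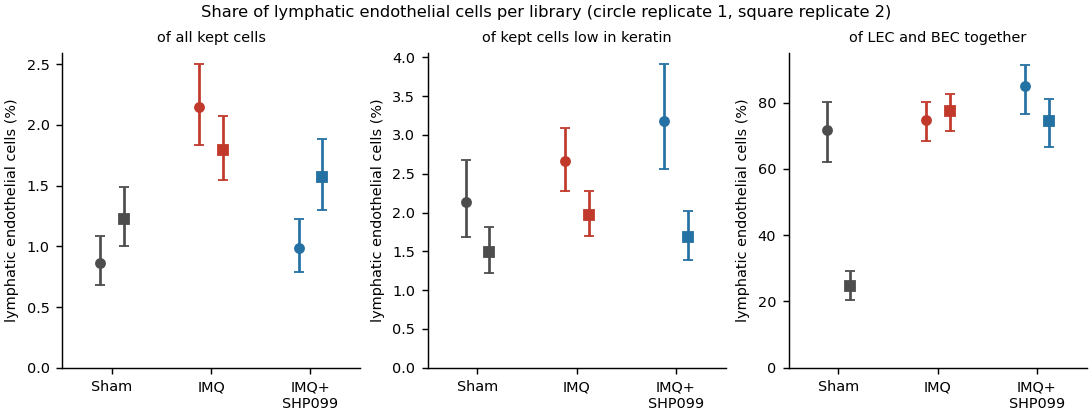
Percentage of LECs by group among all kept cells, among kept cells low in keratin and among LECs and BECs. Circles are replicate 1 and squares replicate 2, with exact Clopper-Pearson 95% intervals as bars. The IMQ libraries are highest among all kept cells (1.80 and 2.15%), and the groups overlap among cells low in keratin.

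The IMQ against Sham comparison asked which genes of the LECs differed in the inflamed skin. Summed UMIs per library were tested with edgeR's quasi-likelihood test with all 3 groups in the fit, and a gene was called at a Benjamini-Hochberg adjusted p under 0.05. Of 7906 genes tested, 43 (0.544%) were called, 20 higher in IMQ (0.253%) and 23 lower (0.291%). The median log2 fold change of all genes was -0.020. Because a summed level can reflect a different mix of LECs as well as a change within each cell, these were not told apart, and the p-values measure the spread between pooled libraries.

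The siderophore-binding protein lipocalin-2 was the most abundant product among the higher genes. Lcn2 (GRCm38 chr2:32384633-32388252) was at 1028 and 615 CPM in Sham, 4982 and 4154 CPM in IMQ, and 5089 and 4497 CPM in IMQ+SHP099. All 4 treated libraries lay above both Sham libraries, with a log2 fold change of 2.48 ± 0.328 in IMQ against Sham (adjusted p = 0.014 by edgeR). It was found in 66.2 and 78.2% of the Sham LECs and in 92.4 to 97.4% of the LECs of the treated libraries, compared with 0 to 44.6% of BECs. In each library the level in LECs was higher than the mean over all kept cells, between 385 and 27900% of it.

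Adamts5, Timp1 and Itih3 were called higher as well. Adamts5, a protease that cleaves versican and aggrecan (chr16:85856173-85901828), was at 9.30 and 32.9 CPM in Sham, 383 and 391 CPM in IMQ and 260 and 465 CPM in IMQ+SHP099. The log2 fold change was 3.91 ± 0.445 (adjusted p = 0.014 by edgeR), and BECs of all groups stayed at 0 to 36.2 CPM. Timp1, an inhibitor of matrix metalloproteinases, was at 4.65, 6.57, 52.2, 62.9, 41.6 and 62.6 CPM in the same order (3.2 ± 0.452 in IMQ against Sham). Its level in LECs was only 15 to 39% of that over all kept cells, unlike Adamts5 and Lcn2. Itih3, a heavy chain that binds hyaluronan, was at 14.0 and 6.57 CPM in Sham and 77.5 and 61.1 CPM in IMQ (3.03 ± 0.441).

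Sema3a, Nppc and Ccl7, which encode secreted products, were also called higher. Sema3a, a secreted semaphorin that guides axons and endothelial cells and takes part in lymphatic valve formation (chr5:13125414-13602565), was at 135 and 112 CPM in Sham, 769 and 497 CPM in IMQ and 548 and 786 CPM in IMQ+SHP099. Its log2 fold change was 2.38 ± 0.340 (adjusted p = 0.014 by edgeR). Nppc, the precursor of C-type natriuretic peptide (chr1:86666291-86670571), had no UMI in the 175 Sham LECs, which allows a share of up to 1.71% of cells with a UMI. It was at 84.4 and 50.1 CPM in IMQ and 96.1 and 158 CPM in IMQ+SHP099, where 14.6 to 18.6% of the LECs of a library had it, and its level was at least 20.7-fold higher in IMQ than in Sham. In BECs a single library had Nppc, at 0.458 CPM. Ccl7, a chemokine for monocytes, was at 46.5 and 17.1 CPM in Sham and 204 and 118 CPM in IMQ (2.63 ± 0.460, adjusted p = 0.0299 by edgeR).

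The other higher genes fell into several kinds. Kng2 (kininogen), Apod (a lipid carrier), Slc39a14 (a zinc and iron transporter), Ctla2a, Mgst1, Ttyh1, Bik and Rpap3 were called with log2 fold changes from 1.66 upward. Of Apod, however, a single cell held 29 to 62% of the UMIs of a library. Saa3, S100a8 and S100a9 were at or near 0 CPM in the Sham LECs. S100a8 was at 90.5 and 108 CPM in IMQ and Saa3 at 60.9 and 31.9 CPM, which was 2% of the level over all kept cells or less. These genes are made in quantity by neutrophils and keratinocytes, and whether their RNA came from other cells was not tested. The muscle genes Acta2 (0 and 1.31 CPM in Sham, 106 and 448 CPM in IMQ) and Tpm2 (0 and 5.26 CPM, 64.4 and 272 CPM) were called higher, and Acta2 is itself 1 of the 7 pericyte and smooth muscle markers given above. Tpm2, Ccl7 and H2-Ab1 were no longer called when LECs with a UMI of Acta2 or Rgs5 were left out, a setting chosen after seeing the data, and Ccl7 was not called in the LECs with Lyve1 alone.

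**Figure D4:**
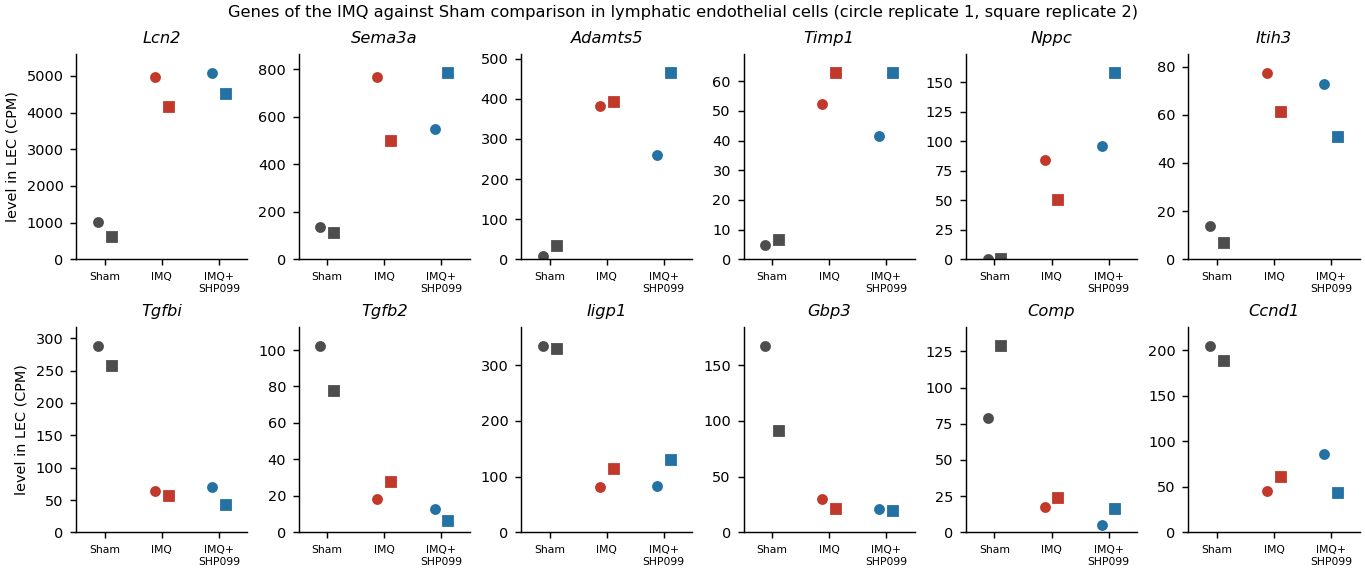
CPM in the summed LECs of each library for 12 genes, by group. Each point is 1 library. Lcn2, Sema3a, Adamts5, Timp1, Nppc and Itih3 are higher in all 4 treated libraries than in both Sham libraries, and Tgfbi, Tgfb2, Iigp1, Gbp3, Comp and Ccnd1 are lower.

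The lower genes contained 2 groups of immune genes and a group of growth factor and matrix genes. Of the latter, Tgfbi, a secreted matrix protein induced by TGF-beta (chr13:56609523-56639562), was at 288 and 258 CPM in Sham, 63.5 and 55.6 CPM in IMQ and 70.1 and 41.8 CPM in IMQ+SHP099. The Sham libraries lay above all treated libraries (log2 fold change -2.18 ± 0.281, adjusted p = 0.014 by edgeR). Tgfb2, a TGF-beta ligand (chr1:186622792-186705989), was at 102 and 77.5 CPM in Sham, 18.3 and 27.3 CPM in IMQ and 13 and 5.96 CPM in IMQ+SHP099 (-1.92 ± 0.343, adjusted p = 0.0317 by edgeR). Comp, a matrix protein that binds collagen, was at 79.1 and 129 CPM in Sham and 17.4 and 23.7 CPM in IMQ. Gdf10, a TGF-beta family ligand, was at 27.9 and 51.3 CPM in Sham and 5.22 and 4.56 CPM in IMQ. Itih5, a hyaluronan-binding heavy chain like Itih3, moved the opposite way from it, from 37.2 and 42.1 CPM to 2.61 and 1.82 CPM (-4.08 ± 0.579). Tgfb1, the other abundant ligand of the family, was at 186 and 180 CPM in Sham and 385 and 402 CPM in IMQ and was not called.

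Ccnd1, the G1 cyclin D1, was at 205 and 188 CPM in Sham, 45.3 and 61.1 CPM in IMQ and 85.7 and 43.2 CPM in IMQ+SHP099 (-1.87 ± 0.317, adjusted p = 0.0272 by edgeR). The transcription factor gene Sox4 was at 135 and 181 CPM in Sham and 52.2 and 54.7 CPM in IMQ, and the cytochrome P450 gene Cyp4b1 at 102 and 61.8 CPM and 9.57 and 12.8 CPM. Net1, Fam180a and Cst6 were called lower as well. Krt77, a keratin gene, was at 140 and 26.3 CPM in the Sham LECs and had no UMI in the treated LECs. Its level in Sham was at most 3.9% of that over all kept cells, and Sham replicate 1 was the library with the most keratinocyte RNA.

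In the list of antigen presentation and immune restraint, 5 of 19 members tested fell and none rose, and 17 of the 19 had a log2 fold change below 0 (median -0.66, compared with -0.020 over all genes). Over all genes tested, 0.291% were called lower and 0.253% higher. The 5 were Tgfb2, the MHC class II chains H2-Eb1, H2-Aa and H2-Ab1 and the invariant chain Cd74. None of them was called without IMQ replicate 1 or without IMQ replicate 2, Tgfb2 was not called by DESeq2, and H2-Aa was lost with only these 2 groups in the fit and without Sham replicate 1. Cd74 was at 200 and 71.0 CPM in Sham, 16.5 and 15.5 CPM in IMQ and 18.2 and 17.9 CPM in IMQ+SHP099 (-2.87 ± 0.452, adjusted p = 0.0227 by edgeR). H2-Eb1 was at 88.4 and 46.0 CPM in Sham and 6.96 and 3.65 CPM in IMQ, and H2-Aa at 107 and 28.9 CPM and 5.22 and 4.56 CPM. In Sham replicate 1 a single cell held 42 to 52% of the UMIs of each class II gene, and Cd74 was found in 10.8 and 19.8% of the Sham LECs and in 4.85 to 7.57% of the treated LECs. The class II genes stood at 3 to 30% of their level over all kept cells, and the part of RNA from other cells was not tested. The class I genes H2-K1 (2149 and 1703 CPM in Sham, 1553 and 1566 CPM in IMQ), H2-D1 and B2m were not called.

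Among interferon-stimulated genes, 6 of 28 tested fell and none rose, and 19 of the 28 had a log2 fold change below 0 (median -0.80). Over all genes tested, 0.291% were called lower and 0.253% higher. Those that fell included Gbp3, Gbp4, Gbp7, Iigp1 and Ifi44. Gbp9, outside the list, was called lower too. Iigp1, an immunity-related GTPase, was at 335 and 330 CPM in Sham, 80.9 and 114 CPM in IMQ and 83.1 and 130 CPM in IMQ+SHP099 (-1.77, adjusted p = 0.0263 by edgeR). Gbp7, a guanylate-binding protein, was at 191 and 197 CPM in Sham, 63.5 and 73.8 CPM in IMQ and 75.3 and 96.9 CPM in IMQ+SHP099 (-1.50, adjusted p = 0.0272 by edgeR). Gbp3 was at 168 and 90.7 CPM, 29.6 and 21 CPM, and 20.8 and 19.4 CPM in the same order (-2.23, adjusted p = 0.0204 by edgeR). In each of these genes both Sham libraries lay above all treated libraries. These calls depended on both IMQ libraries: no member of the list was called lower without IMQ replicate 1, and only Ifi44 was without IMQ replicate 2. The Gbp genes are near-identical copies in part, so the counting could divide reads among them.

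The list did not move as a whole. Isg15, a ubiquitin-like modifier, was at 195 and 679 CPM in Sham, 1157 and 1160 CPM in IMQ and 1644 and 1173 CPM in IMQ+SHP099, and was not called (log2 fold change 1.37, adjusted p = 0.287 by edgeR). Ifitm2, a membrane protein that blocks virus entry, was at 2024 and 1379 CPM in Sham and 5316 and 4609 CPM in IMQ (1.55, adjusted p = 0.0525 by edgeR). Ifit1 was at 172 and 1047 CPM in Sham and 932 and 1294 CPM in IMQ, so its Sham libraries differed more between themselves than the group means did.

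Promoters of the lower immune genes are shown because these genes moved in the same direction. The RefSeq promoters searched (GRCm38.p6), which did not cover every chromosome, held 6 of the 12 called genes looked up: H2-Eb1, H2-Aa, Gbp3, Gbp7, Ifi44 and Tgfb2. Those not among the promoters searched included Cd74, H2-Ab1, Gbp4, Gbp9 and Iigp1. The 250 bases before each start were searched on both strands for the letters GAAANNGAAA (core of the interferon-stimulated response element, ISRE), TTCNNNGAA (the interferon gamma-activated sequence, GAS) and CTGATTGG (the Y box of class II promoters). Among the 32851 promoters searched, 2.98% held the ISRE core, 7.02% GAS and 3.83% the Y box. The 120 bases before the start are given 5′ to 3′ on the strand of the gene, with the Y box (H2-Eb1 and H2-Aa) or the ISRE core (Gbp3 and Gbp7) in capitals.
H2-Eb1, chr17:34305747-34305866, plus strand: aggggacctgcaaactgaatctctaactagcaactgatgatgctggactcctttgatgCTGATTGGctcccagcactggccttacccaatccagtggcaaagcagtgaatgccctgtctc
H2-Aa, chr17:34287824-34287943, minus strand: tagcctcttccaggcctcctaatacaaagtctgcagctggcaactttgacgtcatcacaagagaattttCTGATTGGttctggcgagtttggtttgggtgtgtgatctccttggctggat
Gbp3, chr3:142559924-142560043, plus strand: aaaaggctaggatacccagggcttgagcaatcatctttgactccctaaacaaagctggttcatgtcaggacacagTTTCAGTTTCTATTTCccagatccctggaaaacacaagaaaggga
Gbp7, chr3:142530216-142530335, plus strand: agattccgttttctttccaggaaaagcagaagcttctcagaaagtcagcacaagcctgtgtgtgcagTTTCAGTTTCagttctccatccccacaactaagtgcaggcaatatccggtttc
The Y box began 62 bases before the start of H2-Eb1 and 51 bases before that of H2-Aa. The ISRE core occurred in overlapping copies in Gbp3, from 45 bases before the start, and once in Gbp7, from 53 bases before the start. A GAS match was also present in the Gbp7 window, and the windows of Ifi44 and Tgfb2 and the other annotated start of Gbp3 held none of the searched letters. These matches describe the letters and were not tested as sites.

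**Figure D5:**
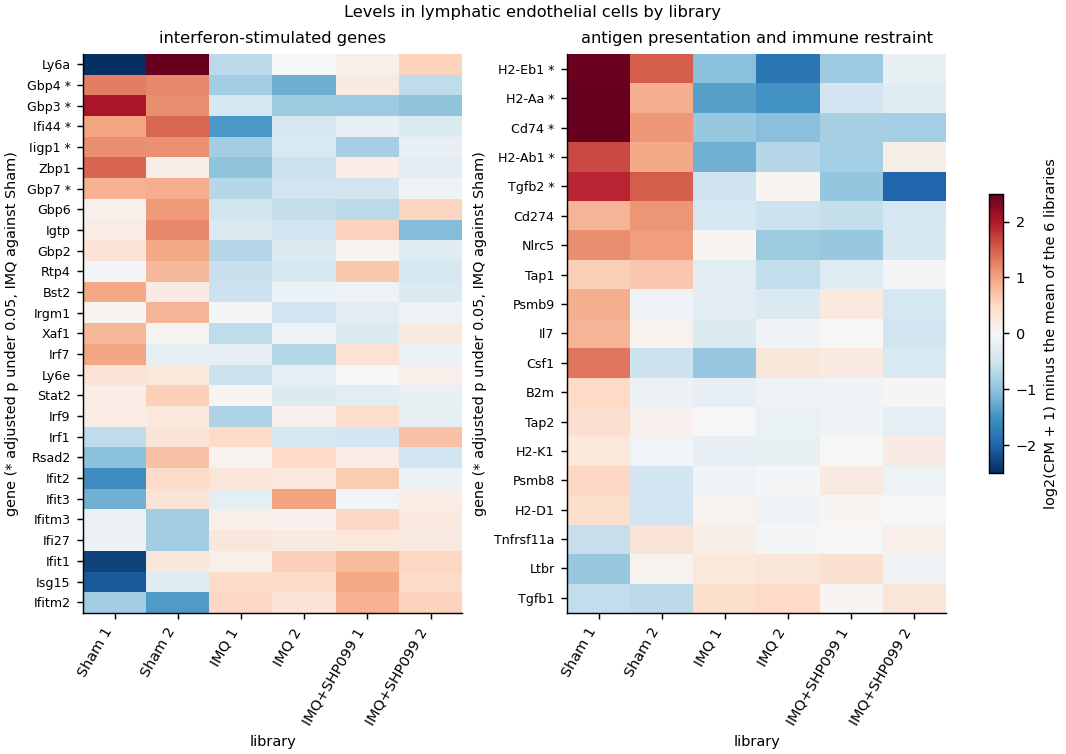
Heat maps of interferon-stimulated genes and of antigen presentation genes in the summed LECs of each library, as log2(CPM + 1) minus the mean of the 6 libraries. Colours are limited to ±2.5, and an asterisk marks an adjusted p under 0.05 for IMQ against Sham by edgeR. Gbp3, Gbp4, Gbp7, Iigp1 and the class II genes are highest in the Sham columns, and Isg15 and Ifitm2 are lowest there.

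Other programmes of the LEC gave few calls, and 0.544% of all genes tested were called in this comparison. In the chemokine list 1 of 11 members tested rose (Ccl7), in the list of NF-kB targets and acute-phase genes 2 of 22 (Lcn2 and Saa3), and among valve and collecting vessel genes 1 of 15 (Sema3a). No member was called among 16 identity transcription factors, 11 lymphatic surface and matrix genes, 13 VEGF-C and angiopoietin genes, 14 junction genes, 19 basement membrane genes, 13 adhesion genes, 17 cytokine and Toll-like receptors, 22 genes of SHP2 and the ERK cascade, 15 immediate early genes, 8 cell cycle genes, 11 fatty acid genes and 12 Notch, ephrin and BMP genes. Their median log2 fold changes lay between -0.23 and 0.17. Of the 169 genes of these 12 lists, 21 had an unadjusted p under 0.05 by edgeR, compared with 915 of all 7906 genes tested. DESeq2 called 1 of the 169 (the glycoprotein gene Thy1, lower in IMQ) and 51 of all 7906 genes. Ccl21a itself was not called (log2 fold change -0.27 ± 0.444, adjusted p = 0.85 by edgeR), and its direction depended on the Sham library: the value was +0.76 (adjusted p = 0.0446 by edgeR) without Sham replicate 1 and -0.86 (adjusted p = 0.0173 by edgeR) without Sham replicate 2. Tlr7, the receptor that imiquimod activates, had no UMI in 727 LECs, which allows a share of up to 0.413% of cells with a UMI.

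The number of called genes depended on single libraries. It was 121 without Sham replicate 1, 85 without Sham replicate 2, 8 without IMQ replicate 1 and 18 without IMQ replicate 2. Every called gene that could be tested in these settings kept its direction. Without IMQ replicate 1, the 8 called genes were 8 higher and 0 lower, and 19 of the 25 genes named by the fixed rule were no longer called, among them Lcn2, Sema3a, Itih3, Ccl7, Cd74, H2-Eb1, Gbp3, Gbp4, Iigp1, Comp and Tgfb2. Without IMQ replicate 2, 17 were higher and 1 (Ifi44) was lower, and 16 of the 25 were lost, among them Timp1, Cd74, H2-Eb1, Gbp3, Gbp4, Iigp1, Comp and Tgfb2. Without Sham replicate 2, the named genes Nppc, Saa3, Tpm2, Kng2, Timp1, Itih3, Ccl7, Gdf10, Comp and Ifi44 were no longer called. Most of the genes called with all libraries were not called in that setting.

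Whether the response to imiquimod differed between LECs and BECs was tested as an interaction of cell type and group in edgeR. Of 9177 genes tested, 24 (0.262%) were called, 13 (0.142%) with a larger log2 fold change in LECs and 11 (0.12%) with a smaller one. The 13 included 4 hemoglobin genes (Hba-a1, Hba-a2, Hbb-bt and Hbb-bs) and the pericyte and smooth muscle markers Acta2 and Rgs5. Hemoglobin genes summed to 0 and 3257 CPM in the Sham LECs and 9073 and 11.6 CPM in the IMQ LECs. In BECs they summed to 45.2 and 6577 CPM in Sham and 11.6 and 2.34 CPM in IMQ. The part of RNA from other cells in these calls was not tested. Adamts5 differed by 3.69 ± 0.654 on the log2 scale (adjusted p = 0.0377 by edgeR), with BECs at 24.2 and 17.9 CPM in Sham and 18.3 and 23.7 CPM in IMQ. Lcn2 was called in the other direction (-4.55 ± 0.774, adjusted p = 0.0301 by edgeR), with BECs at 0 and 0.916 CPM in Sham and at 176 and 162 CPM in IMQ. In absolute level the LECs held more Lcn2 in every library. No interferon-stimulated gene of 30 tested and no antigen presentation gene of 21 tested was called in this comparison, and DESeq2 called none. By edgeR, 7 of these genes had an unadjusted p under 0.05, compared with 785 of all 9177 genes tested. A difference in their response between LECs and BECs was thus not detectable here. The BECs of Sham replicate 1 were 29 cells. Of the 24 genes called, 23 kept the direction of their difference without Sham replicate 2, which held most BECs. Most of the 24 were no longer called in that setting, among them Sele, Nts, Nrgn, Tnc, Fmo2 and Cenpa.

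The IMQ+SHP099 against IMQ comparison asked what the SHP2 inhibitor changed in the LECs of inflamed skin. No gene of 7906 tested was called (0.0%) with edgeR, with 178 genes at an unadjusted p under 0.05, and DESeq2 called none either, with 35 such genes. The log2 fold change between IMQ+SHP099 and IMQ was 0.07 ± 0.308 (SE) for Lcn2, 0.08 ± 0.307 for Sema3a, -0.08 ± 0.347 for Adamts5 and -0.14 ± 0.308 for Tgfbi. For Tgfb2 it was -1.38 ± 0.502 and for Nppc 0.94 ± 0.330, and neither was called (adjusted p = 1.0 for both by edgeR).

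The genes with the smallest unadjusted p are given as values only. Otud1, a deubiquitinase, was at 109 and 72.0 CPM in IMQ and 247 and 222 CPM in IMQ+SHP099 (Sham 102 and 117 CPM). Cxcl12, a chemokine for CXCR4-bearing cells, was at 16.5 and 31.9 CPM in IMQ and 59.8 and 79.0 CPM in IMQ+SHP099, compared with 74.4 and 69.7 CPM in Sham. Its IMQ+SHP099 libraries thus lay near the Sham libraries. Armcx4, Ifnb1 and Vwf were the other 3 with higher values. Ifnb1, the gene of interferon beta, was at 5.22 and 33.7 CPM in IMQ and 255 and 52.2 CPM in IMQ+SHP099, was found in 0 to 9.30% of the LECs of a library and in no BEC, and a single cell held 32.7 to 100% of its UMIs in the libraries that had it. Lower values were seen for Tpm2, Gsn, B4gat1, S100a4 and Xpo6. Gsn, encoding the actin-severing protein gelsolin, was at 151 and 143 CPM in IMQ and 64.9 and 92.5 CPM in IMQ+SHP099.

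No list had a called member in this comparison. Of their 257 genes tested, 13 had an unadjusted p under 0.05 by edgeR, compared with 178 of all 7906 genes tested, and DESeq2 called none. Of the 28 interferon-stimulated genes, 23 had a log2 fold change above 0 (median 0.29), and of 15 immediate early and dissociation genes 13 did (median 0.37), compared with a median of 0.008 over all genes. The antigen presentation list had a median of 0.10. In the list of SHP2, the ERK cascade and its feedback genes the median was -0.09. Ptpn11, which encodes the inhibited phosphatase, was at 37.2 and 71.0 CPM in Sham, 59.2 and 61.1 CPM in IMQ and 49.4 and 46.2 CPM in IMQ+SHP099 (-0.34 for IMQ+SHP099 against IMQ, unadjusted p = 0.289 in the same edgeR fit). A small molecule inhibitor acts on the protein, and neither the activity of SHP2 nor the phosphorylation of ERK was measured in these cells. The test of a different response between LECs and BECs for IMQ+SHP099 against IMQ also gave no call (0.0%), with 366 genes at an unadjusted p under 0.05.

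The LECs of IMQ+SHP099 skin were also compared with those of untreated skin, using the same Sham libraries as above. Of 7906 genes tested, 23 (0.291%) were called, 16 higher (0.202%) and 7 lower (0.0885%). The log2 fold changes were 3.83 ± 0.448 for Adamts5 (adjusted p = 0.00984 by edgeR), 3.1 ± 0.479 for Timp1, 2.55 ± 0.329 for Lcn2 and 2.46 ± 0.342 for Sema3a. Nppc was at least 40.7-fold higher than in Sham. Called here were also Armcx4 (9.30 and 13.1 CPM in Sham, 62.4 and 149 CPM in IMQ+SHP099), Ifitm2 (1.85) and Tmem176b. The lower genes were Itih5, Tgfb2 (-3.29 ± 0.459), Comp (-3.18 ± 0.439), Gbp3 (-2.57), Tgfbi (-2.32 ± 0.303), Sox4 and Gbp9.

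Of the interferon-stimulated genes, 1 rose (Ifitm2) and 1 fell (Gbp3) among 28 tested in IMQ+SHP099 against Sham, and 20 of the 28 were below 0 (median -0.58). Over all genes tested, 0.202% were called higher and 0.0885% lower. Of the antigen presentation genes only Tgfb2 was called. The class II gene H2-Eb1, at 7.79 and 13.4 CPM in IMQ+SHP099 and 88.4 and 46.0 CPM in Sham, had a log2 fold change of -2.40 and an adjusted p of 0.116 by edgeR. With only these 2 groups in the fit, 11 of the 23 genes were still called. Among the named genes, Armcx4, Timp1, Ccl7, Itih3, Rpap3, Sox4 and Gbp9 were then lost. Without IMQ+SHP099 replicate 2, Armcx4, Timp1, Sema3a, Tgfb2, Gbp3, Tgfbi, Sox4 and Gbp9 were among those no longer called. The number of genes called changed with each library left out, as given below.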

How the data were processed

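The deposited files were raw counts: filtered 10x matrices of UMIs per gene and cell, 1 per library, made by the authors with Cell Ranger (3.1.0, GRCm38, per the submitters' processing notes). Replicates were not pooled in the files, and no column of per-sample values was left unused (0). The files held 31053 genes and 55201 barcodes of at least 500 UMIs, with 53913865 to 188283327 UMIs per library.

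Barcodes with fewer than 100000 UMIs, fewer than 6500 genes and less than 10% mitochondrial UMIs were kept. No doublet caller was run. Doublets were limited by the exclusion of leukocyte, keratinocyte and fibroblast transcripts, and leaving out LECs in the top 5% of UMIs was an alternative.

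Cells of a library are not replicates, so the rank-sum test over single cells of the study was replaced by a test of sums. UMIs of LECs (and of BECs) were summed per library and tested with edgeR 4.0.16 (TMM, filterByExpr, quasi-likelihood) in R 4.3.3 with limma 3.58.1, and errors of log2 fold changes are SE from the F statistic. The 12 genes that chose LECs or BECs were left out before the Benjamini-Hochberg adjustment. Shares were compared with exact two-sided permutation tests over libraries. Python 3.11.15, numpy 2.4.6, scipy 1.17.1, pandas 2.3.3 and matplotlib 3.10.9 were used. Where a group had no UMI, a fold is a bound against 3 counts over the group, and limits of a count of 0 are 3 counts of the cells. The edgeR quasi-likelihood fit was checked on simulated counts of the LEC sums, for IMQ against Sham only.

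The cell rule and the 17 pathway and 11 marker lists were chosen with earlier results of these data known, so they are not independent of them. Named genes were, for LECs against BECs, the 8 in each direction with the largest fold change among called genes of at least 50 CPM whose sums did not overlap. For each comparison of groups they were the 10 in each direction among called genes of at least 20 CPM without overlap, or, where fewer than 3 qualified, the 5 with the smallest unadjusted p. For each difference of responses they were the 5 in each direction with the smallest adjusted p, and for each list up to 4 members with the smallest p and the 2 most abundant. Marker genes of cell types other than endothelium were passed over in these rankings, except in those within lists. Further genes were named after their values were seen, as the remaining members of small sets of calls or as familiar markers.

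Alternatives were DESeq2 1.42.0, other size factors, no filter on low counts, only the 2 groups compared, the replicate number as a block, no library block, other cell limits, thinning to 3000 UMIs and leaving out each library. Leaving out LECs with Acta2 or Rgs5, and keeping only LECs with Lyve1, were chosen after seeing the data. Items withheld for evaluation are not reported here.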

Additional observations from a re-analysis of the deposited data

Results flagged for a closer look

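The difference between the response of LECs and that of BECs to imiquimod (log2 fold change in LECs minus that in BECs) had an adjusted p under 0.05 by edgeR for the 10 genes given here. They were the 5 with the smallest adjusted p in each direction outside the marker lists of other cell types. The called hemoglobin genes, Acta2 and Rgs5 were passed over by this rule. Values are in CPM, for Sham replicates 1 and 2 and then IMQ replicates 1 and 2.

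Maf, the transcription factor gene of the lymphatic identity list, differed by 3.862 ± 0.489 (adjusted p = 0.00343 by edgeR). It was at 870, 866, 1057 and 870 CPM in LECs and at 48.5, 41.7, 2.61 and 3.74 CPM in BECs, so the BEC values moved and the LEC values lay close together. Apoe, which carries lipids, differed by 3.21 ± 0.402 (adjusted p = 0.00343 by edgeR), with 275, 718, 460 and 1057 CPM in LECs whereas BECs were at 455 and 872 CPM in Sham and at 109 CPM or less in IMQ. Fmo2, a flavin monooxygenase gene, differed by 2.85.

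Sbsn and Lgals7, both genes of keratinocytes, differed by 4.443 and 3.66. In BECs Lgals7 was at 6103 and 905 CPM in Sham and 69.1 and 38.7 CPM in IMQ, and in the LECs of Sham replicate 1 a single cell held 90.2% of its UMIs. The part of keratinocyte RNA was not tested.

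In the other direction, Nts differed by -6.808. LECs had 847, 438, 1029 and 796 CPM, whereas BECs had none in Sham and 40.4 and 37.4 CPM in IMQ, so the size of this value depends on the prior count of the fit. Sele, the selectin E gene, differed by -5.813 and Nrgn by -6.018, and in both a single LEC held 83 to 94% of the UMIs of Sham replicate 2. Tnc, which encodes the matrix protein tenascin C, differed by -5.938, with BECs at 0, 1.37, 141 and 33.7 CPM. Cenpa, a centromere protein gene of dividing cells, differed by -4.495, with BECs at 36.4, 10.53, 66.5 and 87.3 CPM and LECs at 14.0, 30.2, 4.35 and 8.2 CPM.

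Without Sham replicate 2, which held most BECs, Fmo2, Sele, Nrgn, Nts, Tnc and Cenpa were no longer called. Without IMQ replicate 1, Fmo2 and Tnc were lost, and without IMQ replicate 2, Fmo2 was lost.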

How the results depend on the processing

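The limits of these results are 2 libraries per group, 74 to 185 LECs per library and 15 BECs in the smallest sum. In settings that leave 1 library in a group, that library is assumed to vary like the other groups. In the following, the cause of a change was not tested unless the setting itself names it. Genes called in LECs numbered 43 for IMQ against Sham, and 281 with no filter on low counts, 95 in LECs with Lyve1 and 8 to 121 when 1 library was left out. For IMQ+SHP099 against IMQ, 0 were called, and 31 with no filter, 1 (Spp1) in LECs with Lyve1 and 0 to 2 with 1 library left out, where the 2 were the hemoglobin genes Hbb-bt and Hba-a2 without IMQ replicate 2. For IMQ+SHP099 against Sham, 23 were called, and 43 with DESeq2, 234 with no filter, 11 with only these 2 groups in the fit, 15 without the LECs in the top 5% of UMIs and 11 to 75 with 1 library left out. For LECs against BECs, 2286 were called, 1479 to 2224 with 1 library left out. For the difference of responses to IMQ, 24 were called, and 15 with DESeq2, 220 with no filter and 18 to 319 with 1 library left out (319 without Sham replicate 1). For that to the inhibitor, 0 were called, and 46 with no filter and 0 to 7 with 1 library left out.

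The labels give the groups the same replicate numbers. Deviations of same-numbered libraries correlated by 0.0372 (Sham and IMQ), 0.141 (Sham and IMQ+SHP099) and -0.0412 (IMQ and IMQ+SHP099) over 7906 genes, so with 2 pairs the numbers were not taken to pair the samples. With the replicate number as a block, 80 genes were called for IMQ against Sham, 51 for IMQ+SHP099 against Sham and 2 (Acta2 and Tpm2) for IMQ+SHP099 against IMQ.

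The share of LECs among endothelial cells, IMQ+SHP099 minus IMQ, was 3.72 percentage points and ranged from -1.674 (without IMQ+SHP099 replicate 1) to 9.115. Among cells low in keratin it was 0.119, and -0.458 after thinning, with a range of -0.6326 to 0.8699 when 1 library was left out. The log2 fold change of Ccl21a, IMQ against Sham, was -0.27, and 0.7603 without Sham replicate 1 and -0.8555 without Sham replicate 2. Of 299 values of called genes with 1 library left out, 223 stayed past the threshold and 76 did not, and of 533 in other settings 499 did and 34 did not. None of these changed direction. These figures pool all comparisons. In LECs against BECs every named gene stayed called in each setting, so all losses lay in the comparisons of groups and in the difference of responses.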

Other observations

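Some receptors and mediators of inflammation differed between the LECs and the BECs of the same libraries. Of 17 cytokine and Toll-like receptor genes tested, 4 were higher in LECs than in BECs and 7 were lower by edgeR, where 14.5% of all genes tested were higher and 16.3% lower. Higher were the IL-17 receptor chain Il17ra, the IL-6 receptor chains Il6ra and Il6st and the TGF-beta receptor Tgfbr2, which was at 339 to 841 CPM in LECs and 34.2 to 267 CPM in BECs (log2 difference 1.76). Lower were Il1r1, Lifr, Il4ra, Ifngr1, Ifngr2, Tnfrsf1a and the adaptor Myd88. Il7, the growth factor of naive T cells, was at 74.6 to 191 CPM in LECs and 0 to 8.55 CPM in BECs (log2 difference 5.40 ± 0.352). The complement gene C3 was at 133 to 322 CPM in LECs and 4.12 to 113 CPM in BECs (3.22 ± 0.465).

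Of 28 interferon-stimulated genes tested, 8 were higher in LECs and 11 lower, where 14.5% of all genes tested were higher and 16.3% lower. Higher were Ifit1, Ifit2, Isg15, Rsad2, Zbp1, Ifi27, Ifitm2 and Ifitm3, and lower were Ly6a, Oasl2, Rtp4, Gbp3, Gbp4, Iigp1, Irf1, Irf7, Bst2, Ly6e and Xaf1. Of 12 fatty acid handling genes tested, 4 were lower in LECs (Cd36, Fabp4, Fabp5 and Hadhb) and 1 was higher (Acsl5). Cd36, a fatty acid transporter, was at 0 to 39.4 CPM in LECs and 34.2 to 3043 CPM in BECs, where the highest value was that of Sham replicate 2. Fabp4, a fatty acid carrier of capillaries, was at 74.4 to 506 CPM in LECs and 667 to 15480 CPM in BECs.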
